A study of Mus musculus with 12 samples.

Results

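Thromboxane, ADP, ATP and thrombin are the signals through which a platelet amplifies its own activation, and 10 genes of that system were followed here in megakaryocytes (MKs), the cells that make platelets. The genes were chosen by name from the arachidonic acid enzymes (Ptgs1, Tbxas1, Alox12), the prostanoid receptors (Tbxa2r, Ptger3), the purine receptors (P2ry1, P2ry12, P2rx1) and the thrombin receptors (F2rl2, F2rl3), and no threshold on a measured value was used. They are 10 of the 55536 genes in the deposited table, and all 10 were found in it and passed the filter on low counts. Their choice was made with earlier results of these data known. Counts of them set against all genes below are therefore not independent support. MKs had been sorted from the bone marrow (BM) and the spleen of Pf4-TdTomato mice, young adults of both sexes on the C57BL/6 strain, on day 5 after saline or after sepsis. These mice carry the Cre transgene C57BL/6-Tg(Pf4-icre)Q3Rsko/J, which is driven by the Pf4 promoter, and a Cre-dependent tdTomato reporter, the tm14 allele at the Gt(ROSA)26Sor locus on a B6 background. The reporter stays on in every descendant of a cell in which the Pf4 promoter was active. Saline and sepsis groups shared both alleles, and sepsis was caused by cecal slurry, a suspension of gut content, given into the peritoneal cavity. Each tissue and treatment was represented by 3 independent replicates from separate mice, which makes 4 groups, and each of the 12 libraries came from 300 cells that were CD45+, Lineage-, Pf4-tomato+, CD41+ and CD42b+. The lineage antibodies of this sort were against NK1.1, CD3, CD11b, F4/80 and B220, which mark NK cells, T cells, myeloid cells, macrophages and B cells.

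In a platelet, phospholipase releases arachidonic acid from membranes, COX-1 (the product of Ptgs1) turns it into prostaglandin H2, and thromboxane synthase (Tbxas1) turns that into thromboxane A2, which leaves the cell and acts on its receptor (Tbxa2r). ADP from dense granules acts on the receptors P2Y1 and P2Y12, and ATP on the ion channel P2X1. Thrombin cleaves protease-activated receptors (PARs), and mouse platelets use PAR4 (F2rl3) as the signaling receptor with PAR3 (F2rl2) as its cofactor, in contrast to human platelets, which use PAR1 (F2r) and PAR4.

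Expression was measured as the number of reads on each gene. Values are given as CPM, the counts of a gene scaled to a common total per library with edgeR's TMM factors, and totals per library were between 7756762 and 27386184 counts. A gene with a count of 0 may have had up to 3 counts, which equal 0.105 to 0.405 CPM in these libraries, and such limits take in counting error alone. The label of the cells was checked against 12 MK genes, whose summed level was between 11700 and 47300 CPM in the 6 BM libraries and between 1190 and 3480 CPM in the 6 splenic libraries. Pf4 and Ppbp make up most of that sum in every library. Of the 12 genes, 4 were higher in all 6 BM libraries than in all 6 splenic libraries and the other 8 overlapped, as did Itga2b, which had 320 CPM in splenic replicate 3 of sepsis, within the BM range of 156 to 435 CPM. The defining genes Pf4 and Itga2b were present in every library. The 10 B cell genes summed to between 5290 and 33200 CPM in splenic libraries and to between 83.0 and 603 CPM in BM libraries, the 7 plasma cell genes to between 7460 and 80800 CPM and between 1480 and 4690 CPM, and the 7 T cell genes to between 128 and 1690 CPM and between 5.28 and 83.4 CPM. Both tissues carried the same label of cell type, and these 4 sums did not overlap between them. All splenic libraries were above all BM libraries for 10 of 10 B cell genes. So they were for 3 of 7 plasma cell and 1 of 7 T cell genes, and the rest overlapped. Jchain made up most of each plasma cell sum. The 11 neutrophil genes summed to between 100 and 272 CPM in BM after saline and between 2250 and 16700 CPM after sepsis. In spleen they summed to between 340 and 21200 CPM after saline and between 70.5 and 10400 CPM after sepsis. These libraries are bulk samples, in which fewer MKs and less RNA per MK cannot be told apart. The part of these markers in the differences between tissues given below was not tested.

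The first comparison asked how the pathway differs between BM and splenic MKs. Averaged over saline and sepsis, 7 of the 10 genes were higher in BM MKs and none was higher in splenic MKs at an adjusted p under 0.05 in edgeR's quasi-likelihood test, namely Ptgs1, Tbxas1, Ptger3, P2ry1, P2rx1, F2rl2 and F2rl3. Of all 20263 genes tested, 4.75% were called in this comparison and 2.07% were called as higher in BM. The median log2 fold change of the 10 genes was 3.16, against -0.13 over all genes tested. After sepsis alone 4 of the 10 were called, all higher in BM (Tbxas1, Ptger3, P2ry1 and F2rl2), where 1.78% of all genes were called and 0.597% were higher in BM. After saline alone none of the 10 was called, where 1.25% of all genes were called and 0.523% were higher in BM. In that comparison 7 of the 10 had an unadjusted p under 0.05 (12.5% of all genes), DESeq2 called 3 (2.63% of the genes it tested) and limma-voom called 0 (0.913% of all genes). Without regard to any test, the 3 BM libraries lay above the 3 splenic libraries for 7 of the 10 genes after saline (11.3% of all genes) and for 7 after sepsis (11% of all genes). All 6 BM libraries lay above all 6 splenic libraries for 5 genes, Ptgs1, Tbxas1, P2rx1, F2rl2 and F2rl3, as 2.56% of all genes did.

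**Figure D1:**
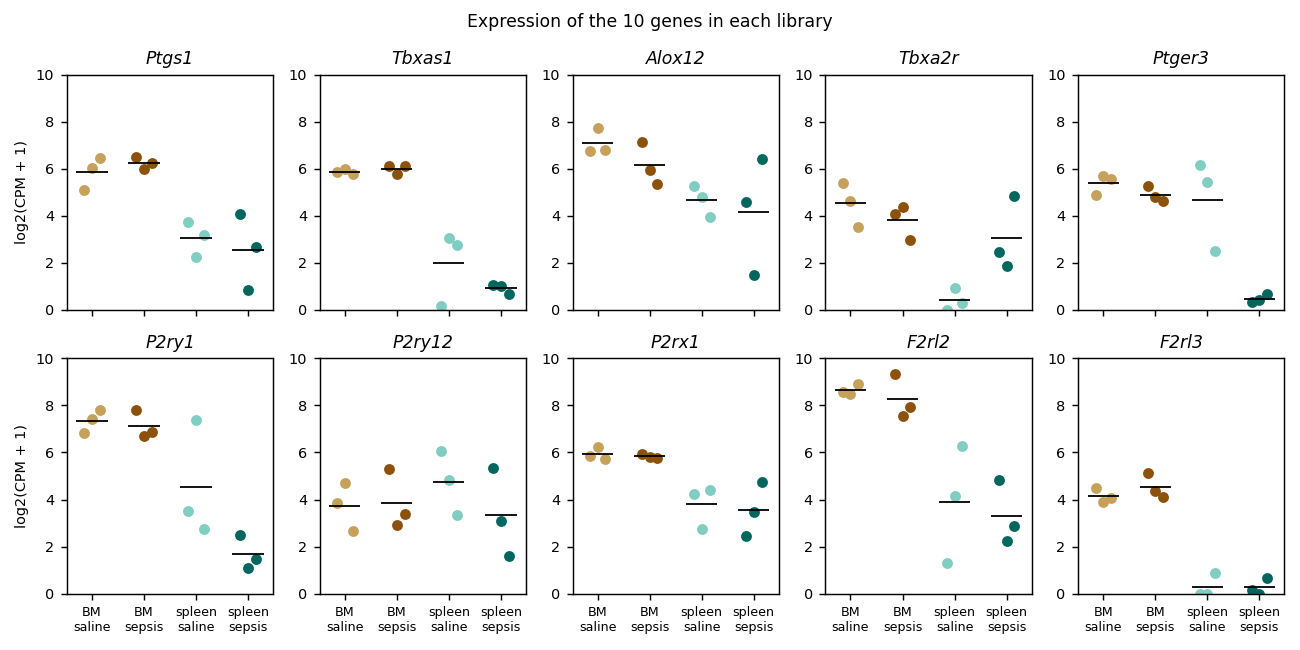
Level of the 10 genes in each library, as log2(CPM + 1) on the vertical axis, with a panel for each gene, a column of 3 points for each group and a line at the mean of the 3. The BM libraries stand above the splenic libraries for Ptgs1, Tbxas1, P2rx1, F2rl2 and F2rl3, while P2ry12 shows no such separation and Ptger3 is near 0 only in splenic MKs after sepsis.

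Part of the sequence before the start site is shown for the 3 of these 5 genes that held a GATA motif there and, for contrast, for Ptger3, which held none of the motifs searched. These 4 were picked after their values had been seen. GATA and ETS factors are known regulators of MK genes. The 250 bases before each start site in RefSeq (GRCm38.p6) were searched on both strands for short runs of letters. The motif of GATA factors was read as AGATAA or as TGATAA, and that of ETS factors as CCGGAA or as AGGAAG. The motif of RUNX factors was read as TGTGGT. The motif shared by NF-E2 and AP-1 was read as TGAGTCA or as its reverse complement TGACTCA. An ETS match that ends in AG can share these bases with a GATA match that begins with them. GATA letters occurred in 3 of the 10 genes, F2rl2, F2rl3 and P2rx1, and in 16.6% of 32851 windows of the same length. ETS letters occurred in 7 of the 10 genes and in 38.2% of windows, RUNX letters in 0 of the 10 and in 14% of windows, and NF-E2 letters in 1 of the 10 (F2rl2) and in 4.46% of windows. Capitals mark the GATA and ETS letters as read on the strand of the gene, which is the plus strand for all 4, with TTATCT and TTCCGG as matches on the opposite strand, and each stretch of 80 bases holds no annotated exon.
F2rl2, chr13:95696773-95696852: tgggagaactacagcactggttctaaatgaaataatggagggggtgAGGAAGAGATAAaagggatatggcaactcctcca
F2rl3, chr8:72761477-72761556: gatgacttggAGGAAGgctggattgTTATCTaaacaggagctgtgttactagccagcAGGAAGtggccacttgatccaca
P2rx1, chr11:72998895-72998974: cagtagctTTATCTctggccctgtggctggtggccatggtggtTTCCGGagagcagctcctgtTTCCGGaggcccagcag
Ptger3, chr3:157566796-157566875: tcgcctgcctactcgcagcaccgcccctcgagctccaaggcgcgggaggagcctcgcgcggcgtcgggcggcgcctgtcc
In F2rl2 the ETS and GATA letters adjoin, in F2rl3 a GATA match lies between 2 ETS matches, and the stretch before Ptger3 is rich in G and C. A match is a description of the letters and not a site of binding.

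Among the enzymes, Ptgs1 and Tbxas1 were higher in BM MKs by 8.89-fold and 30.1-fold on average over treatments. Ptgs1 (chromosome 2, 36230426 to 36252272), which encodes COX-1, the target of aspirin, had 33.3, 64.5 and 85.8 CPM in BM MKs after saline and 90.1, 62.9 and 75.2 CPM after sepsis. It had 12.2, 3.71 and 8.15 CPM in the splenic libraries of saline and 15.7, 0.784 and 5.43 CPM after sepsis. The lowest BM library thus exceeded the highest splenic library, and the spread was widest in splenic MKs after sepsis, where replicate 2 was lowest. The log2 fold change between tissues averaged over treatments was 3.15 (SE 0.65, edgeR adjusted p = 0.00606). Within a treatment it was 2.94 after saline (SE 0.92, edgeR adjusted p = 0.160) and 3.37 after sepsis (SE 0.93, edgeR adjusted p = 0.0822), neither of which was called. After sepsis it was called without splenic replicate 1 of sepsis (4.74, edgeR adjusted p = 0.0214) and without splenic replicate 1 or 2 of saline (3.42 and 3.38, edgeR adjusted p = 0.0411 and 0.0430), and the averaged value was 3.88 without splenic replicate 1 of sepsis. Every fit without a library also repeated the filter and the shared estimate of spread, with 23354 to 26112 genes tested. A call gained or lost in such a fit, here and below, is therefore not an effect of the named library alone.

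Tbxas1 (chromosome 6, 38875404 to 39084585), which encodes thromboxane synthase, was the most even of the 10 genes among BM MKs after saline. It had 56.5, 62.9 and 54.1 CPM in BM MKs after saline and 67.6, 54.2 and 67.4 CPM after sepsis. Splenic MKs had 0.135, 7.34 and 5.79 CPM after saline, where replicate 1 held a single read, and 1.08, 1.01 and 0.582 CPM after sepsis. No splenic library came near the BM range. The log2 fold change was 6.13 after sepsis (SE 1.12, edgeR adjusted p = 0.00558) and 4.91 averaged over treatments (SE 0.75, edgeR adjusted p = 0.000379), and both were called in all alternative settings that were run. After saline it was 3.70 (SE 0.997, edgeR adjusted p = 0.0836). It was called without splenic replicate 1, 2 or 3 of sepsis (3.83, 3.83 and 3.75, edgeR adjusted p = 0.0369, 0.0394 and 0.0378), although these libraries are not part of that comparison. Macrophages, which the antibodies against CD11b and F4/80 were meant to remove, also make thromboxane, and the 10 monocyte and macrophage genes summed to between 317 and 993 CPM in BM libraries and to between 168 and 1970 CPM in splenic libraries.

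Alox12 (chromosome 11, 70241457 to 70255353), which encodes the platelet 12-lipoxygenase that turns arachidonic acid into 12-HETE, was more variable. BM MKs had 107, 208 and 110 CPM after saline and 138, 60.5 and 40.0 CPM after sepsis, and splenic MKs had 37.0, 26.6 and 14.2 CPM after saline and 23.2, 1.79 and 84.4 CPM after sepsis. BM and splenic libraries were apart after saline and overlapped after sepsis, where splenic replicate 3 exceeded 2 of the 3 BM libraries. The averaged log2 fold change of 1.79 (SE 0.64, edgeR adjusted p = 0.122) was not called, and without that library it was 2.58 (edgeR adjusted p = 0.0104).

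**Figure D2:**
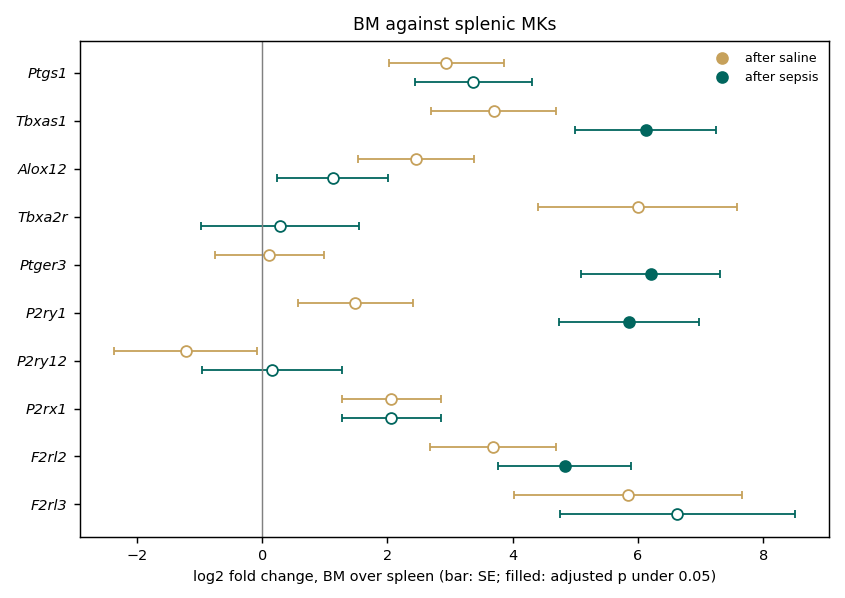
Log2 fold change of BM over splenic MKs for each of the 10 genes, after saline and after sepsis, with bars of 1 SE from edgeR and filled points where the adjusted p was under 0.05. Tbxas1, Ptger3, P2ry1 and F2rl2 are filled after sepsis, no gene is filled after saline, and P2ry12 lies at -1.22 and 0.16.

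The prostanoid receptors differed from each other in how splenic MKs after sepsis compared with splenic MKs after saline. Ptger3 (chromosome 3, 157566892 to 157645888) encodes EP3, a receptor for prostaglandin E2 that lowers cyclic AMP and aids platelet activation. BM MKs had 28.4, 51.3 and 45.9 CPM after saline and 37.4, 26.8 and 23.4 CPM after sepsis. Splenic MKs had 69.7, 41.9 and 4.61 CPM after saline and 0.257, 0.336 and 0.582 CPM after sepsis, the last being 5, 3 and 6 reads. Splenic MKs after saline thus spanned the BM range, and all 3 splenic libraries after sepsis were near the counting limit. Ptger3 was the only one of the 10 genes called between saline and sepsis in spleen, where it fell by 6.61 on the log2 scale (SE 1.13, edgeR adjusted p = 0.0249) in a comparison that called 0.158% of all genes and 0.0987% as lower. The call was lost in limma-voom (adjusted p = 0.433) and in an edgeR fit of the 6 splenic libraries alone (adjusted p = 0.628), and the value was -5.76 without splenic replicate 1 of saline.

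Genes of basophils and mast cells, which also express EP3, were lower in splenic MKs after sepsis as well. The 8 genes of that list summed to 5220, 3540 and 3190 CPM in the splenic libraries of saline and to 91.5, 41.5 and 759 CPM after sepsis, and all 8 were detected in every library. Of the 8 genes, Ms4a2 and Cpa3 were called as lower after sepsis in spleen (log2 fold changes of -5.07 and -5.04, edgeR adjusted p = 0.0400 and 0.0307). In BM the same list summed to between 5050 and 29300 CPM after saline and to between 2650 and 6660 CPM after sepsis. Ptger3 itself had a log2 fold change of -0.52 for sepsis in BM, which was not called. In spleen the 7 plasma cell genes also summed to less after sepsis, 7460 to 35600 CPM against 46600 to 80800 CPM after saline. The part of either list in the Ptger3 result was not tested.

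Between tissues, Ptger3 was 73.7-fold higher in BM MKs after sepsis (log2 fold change 6.20, SE 1.11, edgeR adjusted p = 0.00454), and limma-voom did not call it (adjusted p = 0.0555). After saline its log2 fold change was 0.11 (SE 0.87, edgeR adjusted p = 0.985), and the sign changed with the scaling, at -0.19 with RLE factors. The averaged value of 3.16 (SE 0.68, edgeR adjusted p = 0.00810) is therefore the mean of a difference near 0 and a large difference. The tissue by sepsis interaction was 6.09 (SE 1.36, edgeR adjusted p = 0.302), the smallest p of the 10 genes in that test, and it was not called. Without splenic replicate 3 of saline it was 6.61 and was called (edgeR adjusted p = 0.0228).

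Tbxa2r (chromosome 10, 81328731 to 81335172), which encodes the thromboxane receptor TP, had the opposite order in spleen. Splenic MKs had 0, 0.908 and 0.215 CPM after saline (0, 11 and 2 reads) and 4.52, 2.69 and 27.4 CPM after sepsis. BM MKs had 41.5, 23.8 and 10.6 CPM after saline and 16.0, 19.4 and 6.81 CPM after sepsis. All splenic libraries after sepsis were above all splenic libraries after saline, as for 4.95% of all genes, and replicate 3 of sepsis also exceeded all BM libraries of sepsis. The log2 fold change of sepsis over saline in spleen was 4.86 (SE 1.51, edgeR adjusted p = 0.324), which was not called by edgeR. Between tissues it was 5.99 after saline (SE 1.58, edgeR adjusted p = 0.0754) and 0.29 after sepsis (SE 1.27, edgeR adjusted p = 0.972). The value after saline was called without splenic replicate 2 of saline (7.69, edgeR adjusted p = 0.0427) and without splenic replicate 1, 2 or 3 of sepsis (6.14, 6.13 and 6.05, edgeR adjusted p = 0.0317, 0.0283 and 0.0374). The averaged value of 3.14 (SE 0.98, edgeR adjusted p = 0.0754) was called without splenic replicate 2 of saline (4.002, edgeR adjusted p = 0.0280) or splenic replicate 3 of sepsis (4.01, edgeR adjusted p = 0.0333).

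**Figure D3:**
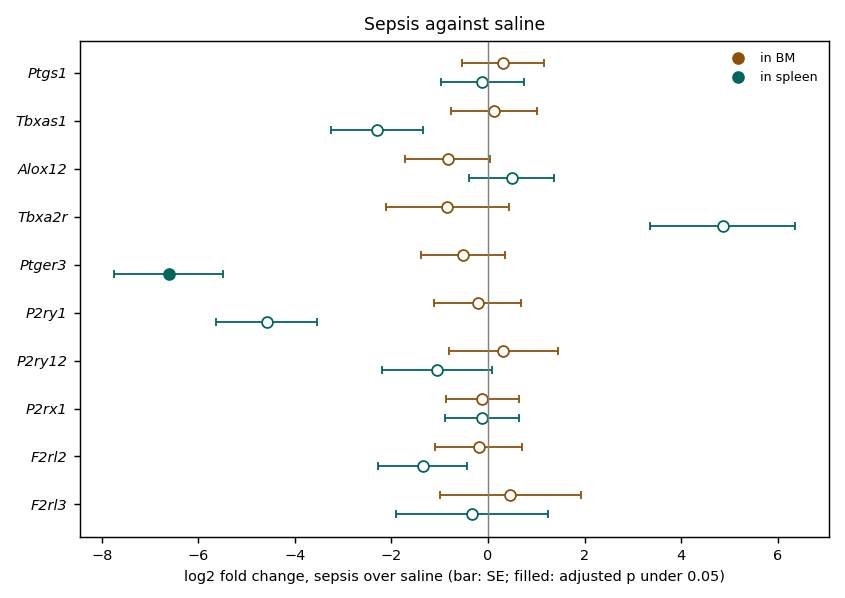
Log2 fold change of sepsis over saline for each of the 10 genes, in BM and in splenic MKs, with bars of 1 SE from edgeR and a filled point where the adjusted p was under 0.05. In BM all 10 points lie between -0.85 and 0.46, and in spleen they run from -6.61 for Ptger3, the filled point, to 4.86 for Tbxa2r.

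The purine receptors did not move as a group. P2ry1 (chromosome 3, 61002795 to 61008982), which encodes the ADP receptor that raises calcium and starts shape change, had 112, 172 and 225 CPM in BM MKs after saline and 220, 103 and 116 CPM after sepsis. It had 10.5, 165 and 5.69 CPM in the splenic libraries of saline and 4.58, 1.12 and 1.75 CPM after sepsis. Splenic replicate 2 of saline lay within the BM range, while the other splenic libraries were below it. After sepsis P2ry1 was 58.1-fold higher in BM MKs (log2 fold change 5.86, SE 1.11, edgeR adjusted p = 0.00733), and without splenic replicate 1 of sepsis the log2 value was 6.77. After saline it was 1.49 (SE 0.92, edgeR adjusted p = 0.498), and without splenic replicate 2 of saline it was 4.40 and was called (edgeR adjusted p = 0.00771). The averaged value of 3.67 (SE 0.71, edgeR adjusted p = 0.00342) was 5.13 without that library.

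In spleen, all saline libraries had more P2ry1 than all sepsis libraries, as 4.51% of all genes did and as Ptger3 did among the 10. The log2 fold change of sepsis over saline was -4.58 (SE 1.05, edgeR adjusted p = 0.115), which was not called. It was called, at an edgeR adjusted p between 0.00643 and 0.0357 and with values from -5.30 to -4.43, when any single library was left out other than splenic replicate 2 of saline or replicate 2 or 3 of sepsis. Without splenic replicate 2 of saline the value was -1.68. Of the exon bases of P2ry1, 23.1% overlap exons of the antisense gene Gm37035, and reads from these 2 genes cannot be told apart there unless the counting used strand, which is not given in the sources used here.

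P2ry12 (chromosome 3, 59216272 to 59262871), which encodes the ADP receptor blocked by clopidogrel, was the only one of the 10 whose averaged log2 fold change was below 0. BM MKs had 13.4, 24.9 and 5.28 CPM after saline and 38.3, 6.46 and 9.54 CPM after sepsis, and splenic MKs had 65.1, 27.2 and 9.12 CPM after saline and 39.2, 7.40 and 2.04 CPM after sepsis. The ranges overlapped in every comparison. The averaged log2 fold change was -0.53 (SE 0.80, edgeR adjusted p = 0.755), with a sign that changed under library-size scaling (0.0538), without splenic replicate 1 of saline (0.0178) and without splenic replicate 1 of sepsis (0.46). P2ry12 lies within Med12l on the other strand, with 0.4% of its exon bases shared. Per kb of exon, the level of P2ry12 over that of P2ry1 was between 0.0395 and 0.293 in the 6 BM libraries. In spleen it was 10.4, 0.278 and 2.7 after saline and 14.4, 11.1 and 1.97 after sepsis, above the BM range in all libraries other than replicate 2 of saline. This ratio was chosen after the values had been seen and carries no test.

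**Figure D4:**
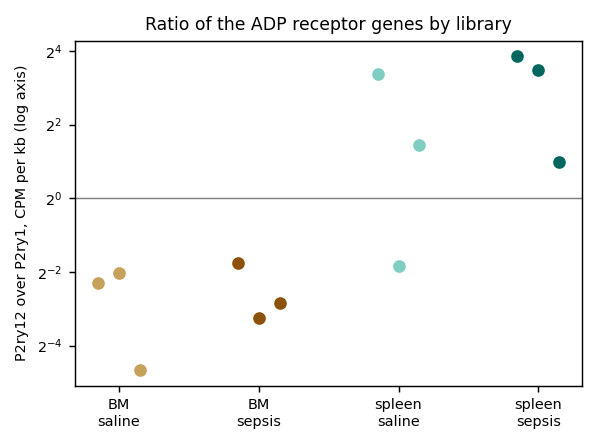
Level of P2ry12 over level of P2ry1 in each library, both as CPM per kb of exon, on a log axis with a line at equal levels. All 6 BM libraries lie below the line at 0.0395 to 0.293, and 5 of the 6 splenic libraries lie above it at 1.97 to 14.4.

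P2rx1 (chromosome 11, 72999103 to 73015200), the ATP-gated channel that lets calcium in, had the smallest difference between tissues among the 7 called genes. BM MKs had 57.4, 74.9 and 51.5 CPM after saline and 59.4, 55.7 and 54.1 CPM after sepsis, and splenic MKs had 18.0, 5.78 and 20.3 CPM after saline and 4.47, 10.1 and 25.9 CPM after sepsis. Every BM library was above every splenic library, and the log2 fold change was 2.06 after saline and 2.06 after sepsis (SE 0.79 in each, edgeR adjusted p = 0.312 and 0.299). The averaged value of 2.06 (SE 0.56, edgeR adjusted p = 0.0372) was 4.18-fold. This call was lost with RLE factors (adjusted p = 0.0680), without a filter on low counts (0.0775), and in 9 of the 12 fits that left out a library (0.0672 to 0.0958), where it held only without splenic replicate 1 or 3 of saline or splenic replicate 3 of sepsis.

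Both thrombin receptors were higher in BM MKs on average over treatments, by 19.1-fold for F2rl2 and 75.4-fold for F2rl3. F2rl2 (chromosome 13, 95696853 to 95702739), which encodes PAR3, had 382, 357 and 484 CPM in BM MKs after saline and 638, 188 and 243 CPM after sepsis. It had 1.49, 16.6 and 77.3 CPM in the splenic libraries of saline and 27.2, 3.70 and 6.41 CPM after sepsis. The highest splenic library, replicate 3 of saline, remained below the lowest BM library. The averaged log2 fold change was 4.26 (SE 0.73, edgeR adjusted p = 0.00122), and it was 5.20 without splenic replicate 3 of saline and 5.01 without splenic replicate 1 of sepsis. After sepsis the log2 fold change was 4.83 (SE 1.06, edgeR adjusted p = 0.0207), with 4.13 without BM replicate 1 of sepsis and 6.25 without splenic replicate 1 of sepsis, and limma-voom did not call it (adjusted p = 0.0564). After saline it was 3.68 (SE 1.01, edgeR adjusted p = 0.0896), a value that was called when any single library was left out other than BM replicate 1 or 3 of saline or splenic replicate 1 or 2 of saline. It was 5.55 without splenic replicate 3 of saline (edgeR adjusted p = 0.00464).

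F2rl3 (chromosome 8, 72761880 to 72763874), which encodes PAR4, was nearly undetected in splenic MKs. BM MKs had 21.3, 13.9 and 15.7 CPM after saline and 34.1, 19.7 and 16.2 CPM after sepsis, from 140 to 523 reads each. Splenic MKs had 0, 0 and 0.858 CPM after saline and 0.103, 0 and 0.582 CPM after sepsis, which are 0, 0, 8, 2, 0 and 6 reads. Of the 10 genes it had the largest averaged log2 fold change, 6.24 (SE 1.31, edgeR adjusted p = 0.00647), and the largest SE, since few splenic reads stand behind it. It was 8.74 without splenic replicate 3 of saline, which leaves no read in that group, so that this value is no measure of size, and 7.13 without splenic replicate 3 of sepsis. Within a treatment the values of 5.84 and 6.63 were not called by edgeR (adjusted p = 0.158 and 0.0921). The value after saline was called without splenic replicate 3 of saline (edgeR adjusted p = 0.0248), and the value after sepsis without splenic replicate 1, 2 or 3 of saline (edgeR adjusted p = 0.0246, 0.0306 and 0.0278).

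F2r, which encodes PAR1 and was not among the 10, was measured with F2rl1 as the remaining members of the receptor family. F2r had 340, 227 and 243 CPM in BM MKs after saline and 225, 234 and 172 CPM after sepsis, against 33.0, 14.2 and 8.48 CPM after saline and 7.66, 1.79 and 3.11 CPM after sepsis in splenic MKs. It was 26.9-fold higher in BM MKs on average (log2 fold change 4.75, SE 0.51, edgeR adjusted p = 8.62e-06) and was also called after saline (3.86, edgeR adjusted p = 0.00675) and after sepsis (5.64, edgeR adjusted p = 0.000336). F2rl1 was not called in any of the 6 comparisons. As a share of the level per kb of exon summed over F2r, F2rl2 and F2rl3, F2rl2 took between 48.4% and 75.1%, F2r between 19.9% and 45.2% and F2rl3 between 2.87% and 6.38% in the BM libraries. F2rl2 was the highest of the 3 in every BM library. In splenic libraries F2rl3 took from 0% to 7.72%, where the shares rest on few reads.

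**Figure D5:**
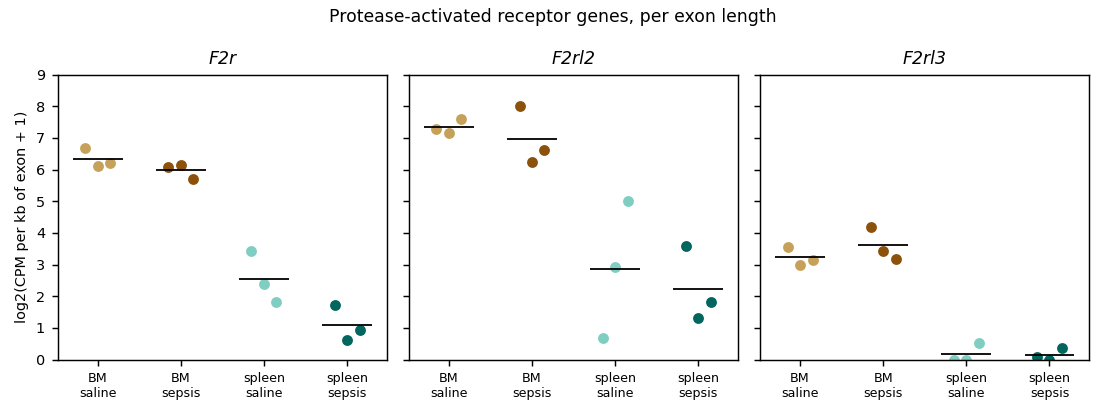
Level of the PAR genes F2r, F2rl2 and F2rl3 in each library as log2(CPM per kb of exon + 1), with a column of 3 points for each group and a line at the mean of the 3. The BM libraries are above the splenic libraries in all 3 panels, and F2rl3 is the lowest of the 3 in every BM library, at 6.98 to 17.1 CPM per kb.

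The second comparison asked what sepsis changed within a tissue. In BM none of the 10 genes was called, as none of all genes was (0%), and none had an unadjusted p under 0.05 in edgeR (3.54% of all genes), with a lowest p of 0.357. DESeq2 called 0 of the 10 and 0.557% of the genes it tested, and limma-voom called 0 of the 10 and 0% of all genes. The log2 fold changes of sepsis over saline in BM ran from -0.85 for Tbxa2r to 0.46 for F2rl3, with a median of -0.16. The SE of these differences was between 0.76 for P2rx1 and 1.46 for F2rl3, so that changes of the size seen were not detectable with 3 libraries a group. In spleen 1 of the 10 was called by edgeR (Ptger3) and 4 had an unadjusted p under 0.05 (Ptger3, P2ry1, Tbxa2r and Tbxas1), as 13.1% of all genes did. DESeq2 called 3 of the 10 and 2.26% of the genes it tested, and limma-voom called 0 of the 10 and 0% of all genes. Tbxas1 had a log2 fold change of -2.30 there (SE 0.96, edgeR adjusted p = 0.382). The remaining 6 genes had values between -1.35 for F2rl2 and 0.49 for Alox12, of which none was called.

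Whether sepsis acted differently in the 2 tissues was tested by the interaction, in which none of the 10 was called by edgeR, as none of all genes was (0%). Ptger3, P2ry1 and Tbxa2r had an unadjusted p under 0.05, as 7.68% of all genes did, with interaction values of 6.09, 4.37 (SE 1.34) and -5.71 (SE 1.93) on the log2 scale. DESeq2 called 1 of the 10 and 1.15% of the genes it tested, and limma-voom called 0 of the 10 and 0% of all genes. Tbxa2r thus had the opposite sign to Ptger3 and P2ry1, and none of the 3 differences passed the correction in edgeR.

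The 10 genes differed widely in level when compared per kb of exon. In the 6 BM libraries F2rl2 was highest at 153 ± 65.3 CPM per kb (SD, n = 6) and did not overlap with P2ry1, the next, at 36.8 ± 13 CPM per kb. Alox12 (27.1 ± 14.6), P2rx1 (22.4 ± 3.17), Ptgs1 (17.7 ± 5.27), Tbxa2r (10.2 ± 6.41), F2rl3 (10.1 ± 3.68), Tbxas1 (6.65 ± 0.698), P2ry12 (6.40 ± 5.06) and Ptger3 (6.25 ± 1.98 CPM per kb) followed. From P2ry1 downward the ranges of neighbors in this order overlapped, although F2rl3 was above Tbxas1 within 6 of 6 libraries. In the 6 splenic libraries P2ry12 came first at 9.83 ± 9.47 CPM per kb, ahead of F2rl2 at 8.84 ± 11.5, and F2rl3 came last at 0.129 ± 0.186. The ranges of all neighbors overlapped in spleen, although Ptgs1 was above Tbxas1, the next, within 6 of 6 libraries.

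Beyond the 10 genes, 66 other genes of the same system were listed, of which 63 were tested. Averaged over treatments 11 were called as higher in BM MKs (2.07% of all genes) and 3 as higher in splenic MKs (2.68% of all genes). After saline 3 and 1 were called (0.523% and 0.725% of all genes), and after sepsis 4 and 1 (0.597% and 1.18% of all genes). For sepsis against saline none was called by edgeR in BM or in spleen, nor in the interaction. An unadjusted p under 0.05 was found for 1, 10 and 3 of the 63, where 3.54%, 13.1% and 7.68% of all genes had one. Of the 11 tested genes of eicosanoid synthesis only Pla2g4a was called, the cytosolic phospholipase that releases arachidonic acid, with BM libraries at 61.9 to 137 CPM and splenic libraries at 0.135 to 15 CPM (averaged log2 fold change 4.26, SE 0.89, edgeR adjusted p = 0.00640). Of the 8 tested prostanoid and leukotriene receptors only Cysltr2, a cysteinyl leukotriene receptor, was called (5.42, SE 1.31, edgeR adjusted p = 0.0183). Its BM libraries were at 1.4 to 67.7 CPM and its splenic libraries at 0 to 4.18 CPM. The tissues overlapped after saline and not after sepsis.

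Of the 30 tested genes that act downstream of the receptors, 8 were called as higher in BM MKs on average and none as lower, against 2.07% and 2.68% of all genes. Rap1b, the small GTPase that switches on the platelet integrin, was the most abundant of them, with 2620 to 4610 CPM in BM libraries and 355 to 1260 CPM in splenic libraries. Its averaged log2 fold change was 2.20 (SE 0.32, edgeR adjusted p = 0.000230), and it was called after saline and after sepsis as well. Rab27b, which is needed for dense granule secretion and so for the release of ADP, had a value of 4.10 (SE 0.68, edgeR adjusted p = 0.000892) and was also called within each treatment. Fermt3, which encodes the integrin activator kindlin-3, had a value of 1.87, and Gnaz, a G protein subunit, one of 2.56. The other called genes were the phosphodiesterases Pde3a (4.49) and Pde5a (3.57), the guanylate cyclase subunit Gucy1a1 (3.59) and Mrvi1, a partner of cyclic GMP kinase (2.95). Listed genes of the same cyclic nucleotide signaling that were not called had values of 2.45 for Gucy1b1, 2.23 for Prkg1, 1.25 for Adcy6, -0.42 for Vasp and -1.21 for Gnas (edgeR adjusted p = 0.158 to 0.589). The edgeR adjusted p of the 6 called genes other than Rap1b and Rab27b was between 0.00526 and 0.0432, and of these only Pde3a was also called within a treatment, after sepsis (6.40, edgeR adjusted p = 0.0344).

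Of the 12 tested genes of purine receptors and handling, 3 were called as higher in splenic MKs on average (2.68% of all genes) and none as higher in BM (2.07%). The other 9 did not pass the test, and 4 of the 12 had values above 0. P2ry10, which despite its name is a receptor for lysophosphatidylserine on lymphocytes, had 22.2 to 159 CPM in splenic libraries and 2.60 to 18.2 CPM in BM libraries (averaged log2 fold change -3.50, SE 0.53, edgeR adjusted p = 0.000338), and it was called in both treatments. Entpd1, which encodes CD39, the surface enzyme that degrades ATP and ADP, had a value of -4.82 (SE 1.08, edgeR adjusted p = 0.0106), with 0.578 CPM in splenic replicate 2 of saline and 30.7 to 74.2 CPM in the other splenic libraries. Slc17a9, the transporter that loads nucleotides into vesicles, had a value of -3.09 (SE 0.84, edgeR adjusted p = 0.0383). B cells, which the antibody against B220 was meant to remove, express P2ry10 and Entpd1. The B cell genes whose sums are given above were higher in splenic than in BM libraries. Within spleen, replicate 3 of sepsis had the lowest B cell sum, 5290 CPM. That library had the highest Entpd1, 74.2 CPM, and 64.9 CPM of P2ry10, within the splenic range of 22.2 to 159 CPM. The part of B cell genes in these values was not tested.

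For each of the 10 genes the 3 tested genes with the most similar pattern were taken by the Pearson correlation of log2 CPM over the 12 libraries. These values describe the 12 libraries, which fall into 2 tissues and share their depth and cell makeup between genes, and they carry no p. The closest matches were those of F2rl3, namely Cavin2 (0.987), Sptb (0.984) and Pf4 (0.983). Ptger3 was followed by Arrdc4 (0.982), 1110028F11Rik (0.967) and Sgce (0.966), and Tbxas1 by Slc35d3 (0.973), Muc13 (0.970) and Ifitm3 (0.966). F2rl2 was followed by Atpif1 (0.966), Tmem158 (0.965) and Dtnbp1 (0.965). For Ptgs1 the 3 genes were Vezf1 (0.957), Vamp5 (0.956) and Idh3a (0.950), for P2rx1 Ctdspl (0.962), Hmgb3 (0.954) and Ctps (0.952), and for P2ry1 Nol4l (0.958), Rgs18 (0.953) and Gm47754 (0.942). Tbxa2r came with Nanos3 (0.951), Gm6266 (0.950) and Creb3l1 (0.932), and Alox12 with Kifap3 (0.918), Scamp1 (0.916) and Sde2 (0.915). P2ry12 had the weakest matches, Pld2 (0.897), Smim19 (0.892) and Tmod2 (0.880).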

How the data were processed

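Per the labels and methods, RNA of 300 sorted cells per library was amplified with the SMART-Seq HT kit and made into libraries with the Nextera XT kit. The authors deposited raw counts of reads for 55536 genes in 12 libraries, without normalization. The submitters' processing notes name STAR 2.7.2b, R 3.6.1, DESeq2 1.26 and GRCm38, and for counting options, read filters and strand use nothing was given in the sources used here. All 55536 identifiers matched the GENCODE M21 annotation of GRCm38, from which positions and exon lengths were taken.

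Counts were analyzed with edgeR 4.0.16 in R 4.3.3 (TMM factors, filterByExpr with a minimum count of 10, 20263 genes, a mean for each of 4 groups from all 12 libraries, 8 residual degrees of freedom). P values were adjusted over all genes by Benjamini-Hochberg, genes were called at an adjusted p under 0.05, and SE is the size of the log2 fold change divided by the square root of F. Alternatives used limma 3.58.1, DESeq2 1.42.0, other scaling, other filters, thinning of all libraries to 7756762 counts, a replicate block, and each library left out in turn. Each fit without a library repeated the filter and the estimate of spread. The procedure was tested on simulated data. Replicates of a group differed by more than counting error (chi-square per degree of freedom of 62.2 to 644). Every one of the 10 genes is named, and of the other 66 all that were called in any comparison. The genes and lists were chosen with earlier results of these data known.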

Additional observations from a re-analysis of the deposited data

How the results depend on the processing

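Of 1298 single-gene values recomputed under 22 alternative settings, 1174 kept their direction and their side of the threshold, 62 passed it newly, 15 lost it and 47 changed sign. The number of the 10 genes called after saline between tissues is given with the share of all genes tested that were called. It was 0 in edgeR (1.25%), 2 with library size alone (1.86%) and 2 without a filter (1.16%). It was 3 with DESeq2 (2.63%), 1 with the replicate block (1.42%) and 1 after thinning (1.45%). With a library left out it was 0 to 3 (0.754% to 1.8%). For sepsis in spleen the number was 1 (0.158%), against 2 without a filter (0.408%) and 3 with DESeq2 (2.26%). It was 0 with limma-voom (0%) and 0 with the 6 splenic libraries alone (0%), where 8 of the 10 were tested. With a library left out it was 1 to 2 (0.206% to 0.556%). For the interaction the number was 0 (0%), against 2 without a filter (0.284%) and 1 with DESeq2 (1.15%). With a library left out it was 0 to 1 (0.0128% to 0.193%). Same-numbered replicates did not deviate together (18 correlations between -0.0566 and 0.0447). The paper does not say whether BM and splenic libraries of the same number share a mouse. These correlations cannot decide it, since replicates of a group differed widely (Pearson correlations of log2 CPM from 0.522 to 0.87). The numbers were not taken as pairs in the main fit. The replicate block called 5 in place of 4 of the 10 genes between tissues after sepsis (1.98% in place of 1.78% of all genes). Averaged over treatments it called 7 of 10, as without it (4.71% against 4.75% of all genes).

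Signs changed in values that were not called. For the difference between tissues after saline, Ptger3 was -0.19 with RLE factors, -0.0289 with the stricter filter and -0.19 with DESeq2, and P2ry12 averaged over treatments was 0.0538 with library size alone. For sepsis in spleen, Alox12 was -1.17 with limma-voom and P2rx1 was 0.10 with library size alone. For the interaction, Alox12 was 0.14 and F2rl2 -0.0335 with limma-voom, and P2rx1 was -0.16 with library size alone. With a library left out, values between tissues ran from -0.38 to 1.03 for Ptger3 after saline, from -0.0641 to 1.97 for Tbxa2r and from -1.004 to 2.02 for P2ry12 after sepsis, and from -1.10 to 0.46 for P2ry12 averaged over treatments. For sepsis in BM they ran from -0.62 to 0.0688 for P2ry1, from -0.84 to 0.99 for P2ry12, from -0.21 to 0.0772 for P2rx1 and from -0.91 to 0.13 for F2rl2. For sepsis in spleen they ran from -1.38 to 0.46 for Ptgs1, from -0.99 to 1.06 for Alox12, from -0.99 to 0.28 for P2rx1, from -2.66 to 0.52 for F2rl2 and from -2.06 to 4.61 for F2rl3. For the interaction they ran from -0.14 to 1.71 for Ptgs1, from -1.99 to 0.18 for Alox12, from -0.39 to 0.89 for P2rx1, from -0.70 to 2.49 for F2rl2 and from -4.14 to 2.53 for F2rl3. The extremes of F2rl3 come from fits that leave a splenic group with 0 reads or with a few, and are no measure of size.

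Scaling moved all genes together. The median log2 fold change over all genes after saline was -0.28 with TMM, -0.54 with RLE factors and 0.20 with library size alone. Of the genes called between tissues, averaged over treatments, 43.6% were higher in BM with TMM, 34.0% with RLE factors and 72.0% with library size alone, among 962, 959 and 1515 calls. Of the 10 genes, 7, 6 and 9 were called in these settings, where 4.75%, 4.73% and 7.48% of all genes were. Reads are few for F2rl3 and Tbxas1 in spleen, for Ptger3 in splenic MKs after sepsis and for Tbxa2r in splenic MKs after saline. The cause of the other changes was not tested.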
